A study of Mus musculus with 45 samples.

Results

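The TOB, BTG and CDK inhibitor genes were followed across 4 lymphocyte populations and 2 genotypes. The 9 genes were taken by symbol from the deposited count table of 55450 genes. They were the antiproliferative genes Tob1, Tob2, Btg1, Btg2 and Btg3, the CIP/KIP inhibitors Cdkn1a (p21) and Cdkn1b (p27), and the INK4 inhibitors Cdkn2c (p18) and Cdkn2d (p19). All 9 passed the filter on low counts in every comparison.

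TOB and BTG proteins share a domain that binds the deadenylase subunits of the CCR4-NOT complex, which shortens the poly(A) tail of mRNA, and they are known to restrain the division of lymphocytes. CIP/KIP proteins bind cyclin-CDK complexes of several kinds, while INK4 proteins bind CDK4 and CDK6 and keep them from D-type cyclins. In the germinal center (GC), B cells divide fast with the help of T follicular helper (TFH) cells, whereas most lymphocytes outside it are at rest.

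Samples came from the draining popliteal lymph nodes of S1PR4-/- mice (allele S1pr4tm1Dgen, lacking sphingosine-1-phosphate receptor 4 in every cell) and of WT littermates, on a C57/BL6 background after at least 10 backcrosses. Mice of both sexes aged 8 to 12 weeks were used, and all had received 20 µl of an emulsion in the footpad with 50 µg OVA and 5 µg LPS in incomplete Freund's adjuvant. TFH (PD1+ CXCR5+) and non-TFH (PD1- CXCR5-) CD4+ T cells were sorted on day 6, and GC B (GL7+ Fas+) and non-GC B (GL7- Fas-) cells on day 9. Each of the 8 groups had 6 samples, except non-GC B cells, with 5 WT and 4 S1PR4-/- samples. The methods give 6 immunized mice of each genotype for the sorts. Mice were killed before the nodes were taken, so the day 6 T cells and day 9 B cells came from different mice. The labels number the samples of a group but do not tie samples to mice, so p-values measure the spread between these samples.

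The 45 samples held between 26299429 and 45548215 expected counts. S1pr4 was between 17.1 and 164 CPM (read counts scaled to library size) in WT samples and at most 1.02 CPM in S1PR4-/- samples, so no sample went against its genotype label. T cell samples had mean T cell marker scores (mean log2 CPM of 12 genes) of 9.004 to 9.17 per group, and B cell samples had mean B cell marker scores of 9.11 to 10.2. Some T cell samples also held B cell transcripts, which is taken up beside the results it touches. In sorted bulk samples, fewer cells of a type and less RNA per cell cannot be told apart.

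Promoters are shown for the pair of members in which any of the words searched was found, Btg1 and Cdkn2c, of which Btg1 had the highest group mean per kilobase and Cdkn2c the widest range over groups. Each line gives the 250 bases before a RefSeq start site (GRCm38.p6), read 5′ to 3′ on the strand of the gene, with the word found in capitals.
Btg1 (chr10:96616751-96617000, plus strand): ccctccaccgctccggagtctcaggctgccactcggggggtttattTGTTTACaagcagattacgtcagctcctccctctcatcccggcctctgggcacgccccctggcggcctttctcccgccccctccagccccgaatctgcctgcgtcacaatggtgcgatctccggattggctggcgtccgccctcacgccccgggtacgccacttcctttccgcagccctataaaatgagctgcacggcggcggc
Cdkn2c (chr4:109665373-109665622, minus strand): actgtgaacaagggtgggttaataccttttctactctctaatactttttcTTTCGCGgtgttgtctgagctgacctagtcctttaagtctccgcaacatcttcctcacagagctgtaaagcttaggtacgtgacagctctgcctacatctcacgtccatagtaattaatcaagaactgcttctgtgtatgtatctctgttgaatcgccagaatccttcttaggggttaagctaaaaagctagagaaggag
Words were searched on both strands of windows reaching from 250 bases before to 50 bases after each start site. The capitals in Btg1 are the FOXO word GTAAACA on the opposite strand, and they begin at position -204 from the start site. A share of 4.05% of 27025 genes held this word. In Cdkn2c, the capitals are the E2F word TTTCGCG, at position -200 from the downstream one of its RefSeq start sites. Either of the words TTTCGCG and TTTGGCG was present in 2.68% of genes. The same Cdkn2c window held the E-box CACGTG 35 bases after the start site, a word found in 8.09% of genes. None of the other 7 members held any of these words or the KLF word GGGTGTG (9.05% of genes). The matches are letters in a window and were not tied to binding of any factor.

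Levels are given as CPM, and between genes only as CPM per kilobase of exon. Per kilobase, Btg1 was the most abundant member in WT GC B cells and, in both genotypes, in non-TFH and non-GC B cells, with group means from 76.3 to 375 CPM per kb over all groups. Btg2 (83.8 to 201), the highest in S1PR4-/- GC B cells, and Cdkn2d (54.8 to 137), the highest in TFH cells, followed. Tob2 stood between 9.13 and 18.1, Tob1 between 4.71 and 20.6, and Cdkn2c between 2.61 and 58.9 CPM per kb. The lowest levels were those of Btg3 (1.74 to 5.80), Cdkn1a (0.273 to 3.98) and Cdkn1b (0.336 to 1.94). From the lowest to the highest group mean, Cdkn2c ranged over 22.5-fold and Cdkn1a over 14.6-fold, while Tob2 ranged over 1.99-fold.

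**Figure D1:**
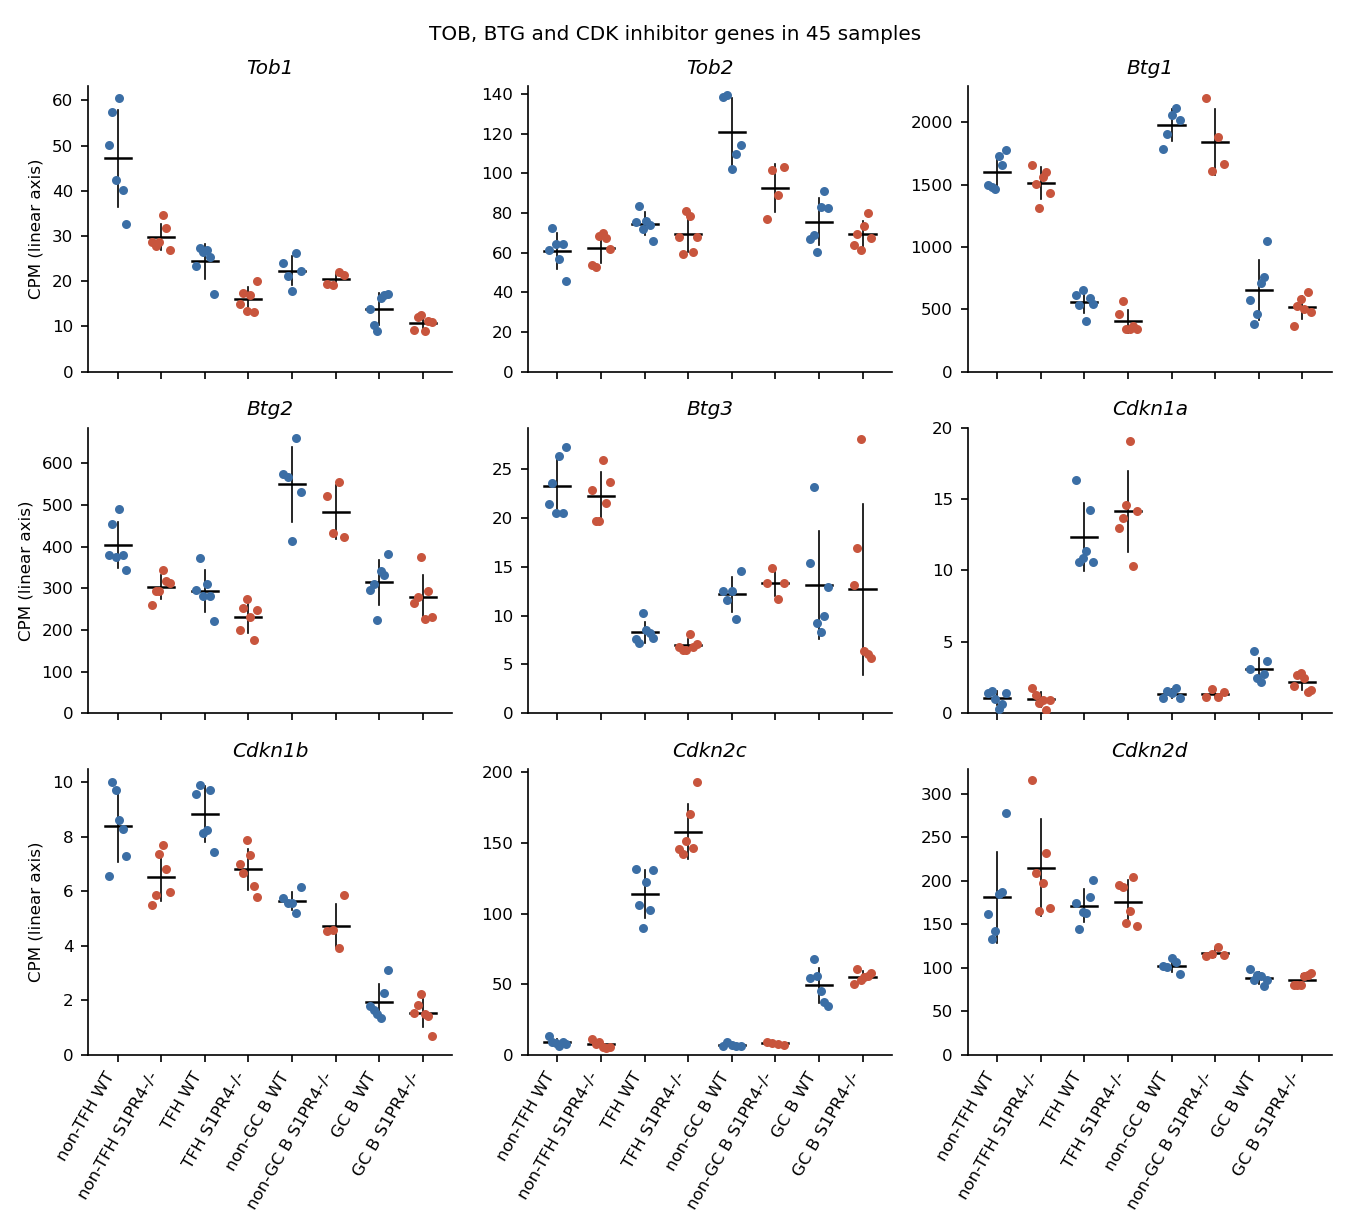
CPM (linear axis) of each of the 9 genes in every sample, with WT samples in blue and S1PR4-/- samples in red. Horizontal bars are group means and vertical bars 1 SD (n = 6, or 5 and 4 in non-GC B cells). Cdkn2c and Cdkn1a stood highest in TFH cells, and Btg1 stood lowest in TFH and GC B cells.

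The first question was how these genes differed between cells of the GC response and their counterparts outside it. In WT CD4+ T cells, TFH cells had more Cdkn2c and Cdkn1a than non-TFH cells and less Btg1, Btg3 and Tob1. Among the 9 members, 5 passed both thresholds (FDR under 0.05 over all tested genes and a fold change over 1.5 in edgeR's quasi-likelihood test), 2 of them higher and 3 lower. Over all 13481 genes tested, 43.1% passed, 22.8% higher and 20.3% lower. The groups of 5 members did not overlap, as was so for 48.5% of genes. The median log2 fold change was -0.08 over the members and 0.00025 over all genes. In S1PR4-/- cells 5 members also passed, against 43.2% of all genes, and they were the same 5 in the same directions. There too the groups of 5 members did not overlap, against 48.5% of genes.

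Btg1 (chromosome 10, 96617006 to 96622809 in mm10) has a known part in keeping T cells quiescent. In WT non-TFH cells it was at 1463 CPM in the lowest sample, 1574 at the median and 1774 in the highest. The corresponding values in WT TFH cells were 404, 567 and 657 CPM, so every TFH sample was below every non-TFH sample. The log2 fold change was -1.52 (SE 0.0987, edgeR adjusted p = 3.9e-09), a 2.87-fold lower level. SE is the standard error. In S1PR4-/- mice, Btg1 was between 1314 and 1660 CPM in non-TFH and between 340 and 568 CPM in TFH cells, a log2 fold change of -1.89 (SE 0.127).

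Btg3 (chromosome 16, 78332637 to 78377192) was also lower in TFH cells. Its lowest, median and highest WT values were 20.5, 22.5 and 27.3 CPM in non-TFH and 7.24, 7.99 and 10.3 CPM in TFH cells, with no overlap between groups. The log2 fold change was -1.49 (SE 0.112) in WT and -1.66 (SE 0.0939) in S1PR4-/- cells. Of the 31-base words of Btg3 transcripts, 33.4% occur in transcripts of other genes, 18.3% in Gm7334 alone, so its counts rest in part on how RSEM split such reads. Btg3 also overlaps Cxadr on the opposite strand, and the strand setting of the counting was not given in the sources used here, so reads of this pair may have been mixed. The same holds for Tob2 with Gm49476 and for Cdkn1a with AC167363.2.

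Tob1 (chromosome 11, 94211454 to 94215495) ran from 32.6 over a median of 46.2 to 60.6 CPM in WT non-TFH cells. WT TFH cells held 17.1, 25.9 and 27.3 CPM, all under the lowest non-TFH sample. It fell by 0.95 on the log2 scale (SE 0.152, edgeR adjusted p = 5.7e-05), and in S1PR4-/- cells by 0.88 (SE 0.108). Btg2 (chromosome 1, 134075170 to 134079120), a gene induced by p53 and by mitogens, had an adjusted p of 0.0026 by the same test but a log2 fold change of only -0.46, and the groups overlapped (343 to 489 CPM in WT non-TFH and 220 to 374 CPM in WT TFH cells). Tob2 (chromosome 15, 81848272 to 81858796) stood at 45.6 to 72.5 CPM in non-TFH and 65.9 to 83.8 CPM in TFH cells, with a log2 fold change of 0.29 (95% interval 0.092 to 0.498) that stayed under the fold threshold.

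Of the CDK inhibitors, Cdkn2c (chromosome 4, 109660876 to 109667189) showed the widest gap. Its lowest, median and highest values were 6.20, 8.56 and 13.6 CPM in WT non-TFH cells and 89.6, 114 and 132 CPM in WT TFH cells. The rise was 12.7-fold, a log2 fold change of 3.66 (SE 0.168, edgeR adjusted p = 2.1e-10). In S1PR4-/- cells Cdkn2c ran from 5.18 to 11.4 CPM in non-TFH and from 142 to 193 CPM in TFH cells, a 21.6-fold rise.

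Cdkn1a (chromosome 17, 29090976 to 29100727), the classic p53 target among the inhibitors, rose beside it. WT non-TFH samples held 0.291, 1.19 and 1.59 CPM (lowest, median, highest), which rests on 11 to 55 expected counts. WT TFH samples held 10.6, 11.1 and 16.3 CPM. The groups were far apart, with a log2 fold change of 3.55 (SE 0.31) in WT and 3.88 (SE 0.32) in S1PR4-/- cells. Cdkn1b (chromosome 6, 134920401 to 134925513) and Cdkn2d (chromosome 9, 21288410 to 21291407) did not pass in either genotype. The WT log2 fold change of Cdkn1b was 0.07 (95% interval -0.21 to 0.35) and that of Cdkn2d -0.08 (95% interval -0.40 to 0.25).

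B cell transcripts stood higher in TFH than in non-TFH samples. The B cell marker score (mean log2 CPM of 12 genes) had medians of 3.85 in WT TFH and 0.96 in WT non-TFH samples, against 9.26 in WT GC B samples. Cdkn2c and Cdkn1a were lower in WT GC B cells (means of 49.2 and 3.09 CPM) than in WT TFH cells (114 and 12.3 CPM). The plasma cell marker score (mean log2 CPM of 8 genes) also differed, with medians of 3.95 in WT TFH and 1.78 in WT non-TFH samples. The part of B cell and plasma cell transcripts in the differences between TFH and non-TFH cells was not tested.

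In WT B cells, 7 of the 9 members differed with GC status, 2 higher and 5 lower, against 47.5% of 13324 genes tested (24.6% higher and 22.9% lower). The groups of 7 members did not overlap, against 50.8% of genes. The median log2 fold change was -0.61 over the members and 0.0021 over all genes. In S1PR4-/- mice 6 of 9 passed, against 47.8% of all genes (25% higher and 22.8% lower), all 6 among those 7 and in the same directions. The groups of 6 members did not overlap, Cdkn2d among them, against 53.1% of genes. Tob2 was the one that passed in WT alone, and whether its change differs between genotypes is answered by the interaction test given below.

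Btg1 fell from 1788, 1909, 2054, 2116 and 2021 CPM in the 5 WT non-GC B samples to 379, 643 and 1044 CPM (lowest, median, highest) in WT GC B samples. No sample of either group reached the other. The log2 fold change was -1.53 (SE 0.208, edgeR adjusted p = 3.5e-05), close in size to that in T cells, and the test of that difference gave -0.07 (95% interval -0.57 to 0.42). The 4 S1PR4-/- non-GC B samples held 2196, 1611, 1885 and 1669 CPM and the GC B samples 369 to 636 CPM, a log2 fold change of -1.77 (SE 0.136).

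Btg2 was at 575, 567, 414, 662 and 532 CPM in WT non-GC B and between 224 and 381 CPM in WT GC B cells. It fell, with log2 fold changes of -0.74 (SE 0.131) in WT and -0.74 (SE 0.136) in S1PR4-/- cells. Tob1 was at 24.0, 21.2, 17.8, 26.3 and 22.2 CPM in WT non-GC B and 9.002, 15.1 and 17.3 CPM (lowest, median, highest) in WT GC B cells. It fell by 0.62 on the log2 scale in WT (SE 0.175, edgeR adjusted p = 0.0069) and by 0.86 in S1PR4-/- cells. Tob2 fell by 0.61 in WT cells (SE 0.114), from 138, 139, 102, 110 and 114 CPM to between 60.5 and 91.2 CPM, and in S1PR4-/- cells its log2 fold change was -0.36 (adjusted p = 0.0089, edgeR), under the fold threshold.

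Both WT calls lay near that threshold. Without WT GC B replicate 2 or 3 or WT non-GC B replicate 4 the log2 fold change of Tob1 was -0.54, -0.51 and -0.55, and without WT non-GC B replicate 1 or 2 or WT GC B replicate 3 that of Tob2 was -0.56, -0.56 and -0.54, all under 1.5-fold.

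Btg3 varied widely between GC B samples. The 6 WT samples held 15.4, 23.2, 9.27, 8.37, 9.95 and 12.9 CPM (replicates 1 to 6), and the 6 S1PR4-/- samples 13.1, 16.9, 28.1, 6.34, 6.11 and 5.66 CPM. The plasma cell marker score (mean log2 CPM of 8 genes, among them Prdm1, Xbp1 and Jchain) in the same order was 7.21, 8.05, 7.22, 6.58, 6.75 and 7.02 in WT samples. In the S1PR4-/- samples it was 7.41, 7.96, 8.79, 5.49, 6.03 and 5.65. In each genotype the sample with the most Btg3 also had the highest score, and S1PR4-/- replicates 4 to 6 were lowest in both measures. The part of plasma cell transcripts in the Btg3 values was not tested. From outside to inside the GC the log2 fold change of Btg3 was 0.18 (95% interval -0.35 to 0.71) in WT and -0.01 (95% interval -0.98 to 0.95) in S1PR4-/- cells.

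**Figure D2:**
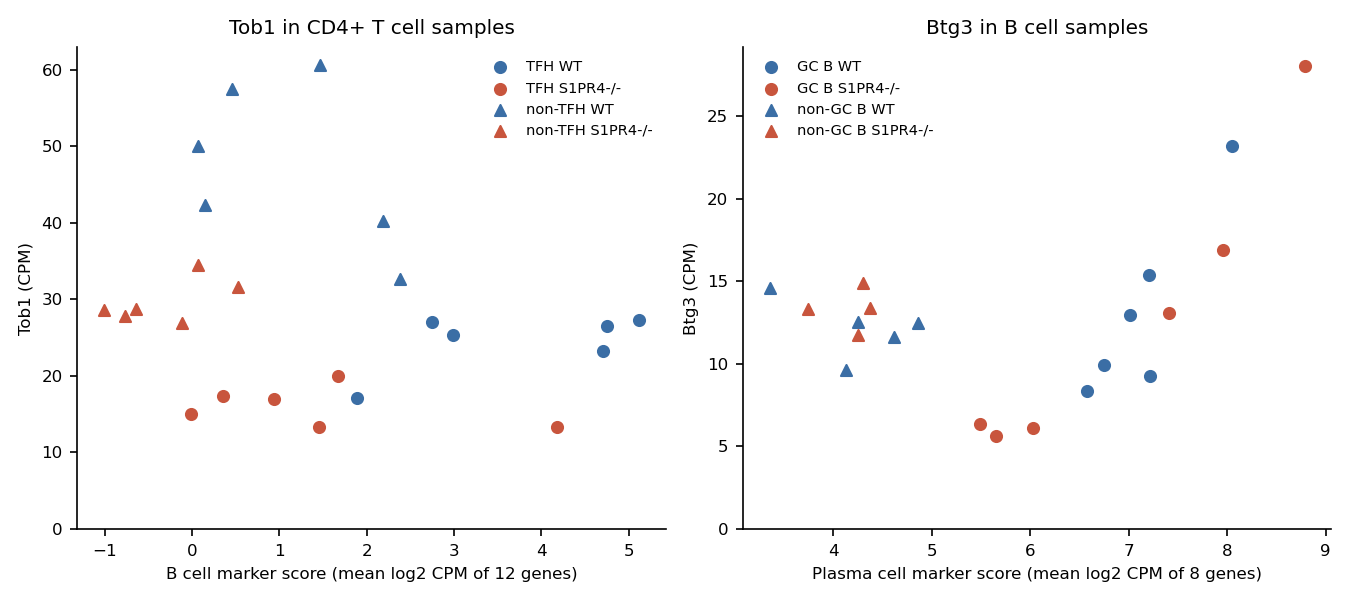
Left, Tob1 (CPM) against the B cell marker score in the 24 CD4+ T cell samples. Right, Btg3 (CPM) against the plasma cell marker score in the 21 B cell samples. Each point is a sample, WT in blue and S1PR4-/- in red. S1PR4-/- TFH samples lay below most WT TFH samples in Tob1, and the GC B samples with the most Btg3 (28.1 and 23.2 CPM) had plasma cell scores of 8.79 and 8.05.

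The CIP/KIP genes moved apart in B cells. Cdkn1a was at 1.05, 1.54, 1.44, 1.74 and 1.07 CPM in WT non-GC B and at 2.19, 2.91 and 4.37 CPM (lowest, median, highest) in WT GC B cells, with no overlap. Its log2 fold change was 1.24 (SE 0.261, edgeR adjusted p = 0.00092). In S1PR4-/- cells it was 0.72 (adjusted p = 0.047), and leaving out GC B replicate 1, 2, 3 or 4 or non-GC B replicate 1, 3 or 4 gave 0.63 to 0.75 with adjusted p from 0.063 to 0.12. Cdkn1b went from 5.75, 5.57, 5.57, 5.22 and 6.15 CPM in WT non-GC B to 1.35, 1.71 and 3.11 CPM in WT GC B cells. It fell by 1.47 on the log2 scale in WT (SE 0.226) and by 1.57 in S1PR4-/- cells (SE 0.296). The B cell samples held only 23 to 212 expected counts of Cdkn1b each.

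The INK4 genes differed from each other as well. WT non-GC B samples held 6.38, 9.37, 7.22, 6.17 and 5.94 CPM of Cdkn2c, and WT GC B samples 34.6, 49.8 and 67.8 CPM (lowest, median, highest). Cdkn2c rose 7.35-fold in WT (log2 fold change 2.88, SE 0.198, adjusted p = 6.5e-08, edgeR's quasi-likelihood test) and 7.20-fold in S1PR4-/- cells. Plasma cell marker scores also differed between these populations, with medians of 7.11 in WT GC B and 4.25 in WT non-GC B samples. In S1PR4-/- mice the medians were 6.72 and 4.28. The part of plasma cell transcripts in the rises of Cdkn2c and Cdkn1a was not tested. Cdkn2d was between 78.6 and 111 CPM in both WT groups, with a log2 fold change of -0.14 (95% interval -0.30 to 0.012, adjusted p = 0.094). In S1PR4-/- cells it was -0.38 (adjusted p = 0.00066), under the fold threshold, although the groups did not overlap (114 to 123 against 79.9 to 94.4 CPM).

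**Figure D3:**
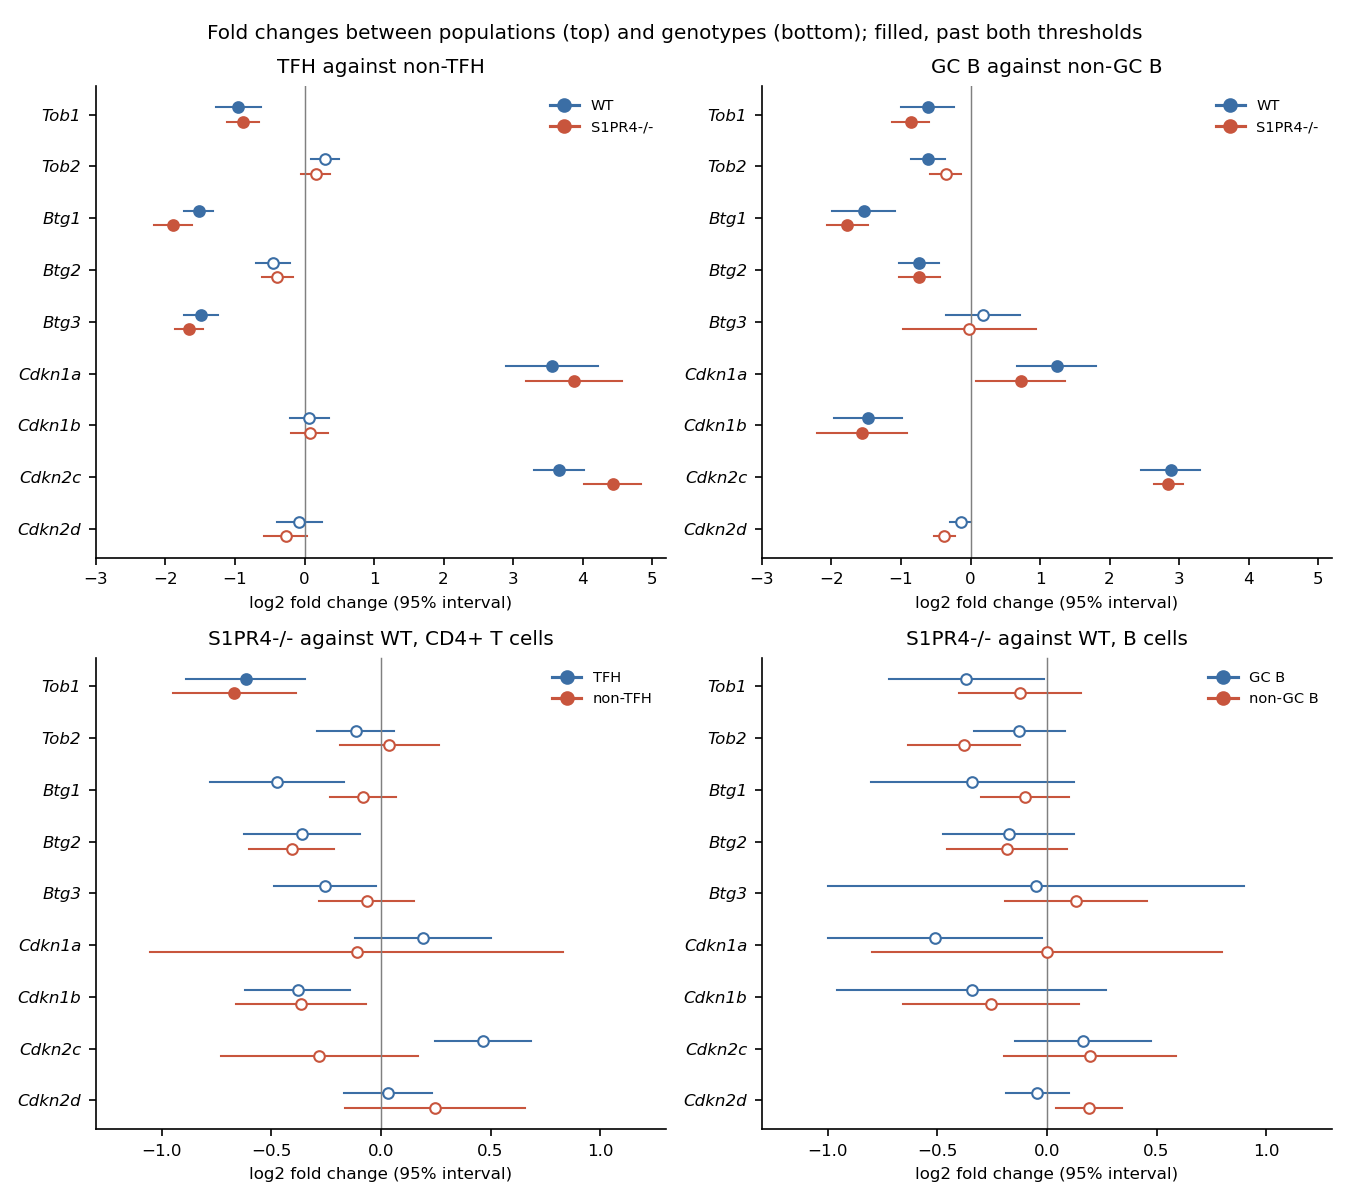
Log2 fold changes of the 9 genes with 95% intervals, between populations within each genotype (top) and between genotypes within each population (bottom, on a narrower axis). Filled points passed both thresholds. Cdkn2c and Cdkn1a lay to the right in both upper panels, and in the lower panels only the 2 Tob1 points in T cells were filled.

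Whether the GC shift was alike in B and T cells was tested as the difference of the differences in one fit of the 4 WT groups. Of the 9 members, 5 passed at an FDR under 0.05, against 41.6% of 15101 genes (20.3% higher and 21.3% lower in B cells). The difference, B minus T, was -2.38 on the log2 scale for Cdkn1a (SE 0.404, edgeR adjusted p = 4.9e-05), whose rise was larger in T cells. For Cdkn2c it was -0.85 (SE 0.251, adjusted p = 0.0085). Cdkn1b (-1.61, SE 0.243) was lower in GC B cells but had no detected change in TFH cells. Tob2 (-0.97, SE 0.157) fell in GC B cells and had a small positive value in TFH cells. Btg3 (1.60, SE 0.272) fell in TFH cells and had no detected change in GC B cells. No difference was detected for Tob1 (0.27, 95% interval -0.23 to 0.78), Btg2 (-0.35, 95% interval -0.73 to 0.033) or Cdkn2d (-0.13, 95% interval -0.50 to 0.24).

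Set directly against each other, WT GC B and TFH cells differed in 6 of 9 members, against 42.7% of all genes (19.1% higher and 23.5% lower), and the groups of 4 members did not overlap, against 45.6%. Btg3 was higher in GC B cells (log2 fold change 0.67), and Cdkn1b (-2.18), Cdkn1a (-1.99), Cdkn2c (-1.21), Cdkn2d (-0.95) and Tob1 (-0.81) were lower. Without WT GC B replicate 2, which held the most Btg3 of its group, the value for Btg3 was 0.44. Between WT non-GC B and non-TFH cells 4 of 9 differed and the groups of 6 members did not overlap, against 40.1% (19% higher and 21.1% lower) and 39.8% of all genes, with Tob2 higher in B cells (0.99) and Tob1 (-1.08), Btg3 (-0.93) and Cdkn2d (-0.82) lower. Lineage and day of sort cannot be told apart in these comparisons.

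The second question was what loss of S1PR4 did to these genes within each population. In TFH cells 1 of 9 members passed both thresholds, against 0.452% of 13495 genes tested (0.0963% higher and 0.356% lower). The one was Tob1. Its values were 23.3, 27.3, 26.5, 26.99, 25.3 and 17.1 CPM in WT replicates 1 to 6 and 14.98, 17.4, 13.3, 16.97, 13.3 and 20.0 CPM in S1PR4-/- replicates 1 to 6. All 6 S1PR4-/- samples were below the WT mean of 24.4 CPM, and 1 WT sample lay among them. Tob1 fell by 0.62 on the log2 scale, a 1.53-fold lower level (SE 0.127, edgeR adjusted p = 0.038).

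Non-TFH cells gave a like value, though they may come from the same mice as the TFH cells. Again 1 of 9 members passed, against 0.129% of 13197 genes tested (0.053% higher and 0.0758% lower), and it was Tob1. The genotypes overlapped in all 9 members, and were apart in 1.17% of genes. WT replicates 1 to 6 held 50.1, 57.4, 42.4, 60.6, 40.2 and 32.6 CPM, and S1PR4-/- replicates 28.6, 27.9, 28.7, 34.5, 31.7 and 26.9 CPM. Only S1PR4-/- replicate 4 reached into the WT range. The fall was 0.67 on the log2 scale, or 1.59-fold (SE 0.132, edgeR adjusted p = 0.048). The difference between the TFH and non-TFH values was 0.05 (95% interval -0.34 to 0.45, adjusted p = 0.97).

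Both Tob1 calls lay close to the thresholds. In TFH cells leaving out WT replicate 1, 2, 3 or 5 or S1PR4-/- replicate 1, 3, 4 or 5 ended the call, with log2 fold changes of -0.57 to -0.63 and adjusted p from 0.042 to 0.098. In non-TFH cells, WT replicates 1 to 4 and each of the 6 S1PR4-/- replicates ended it (-0.58 to -0.72, adjusted p from 0.054 to 0.14). Over the 10 other settings tried, adjusted p ran from 0.00072 to 0.23 in TFH and from 0.00041 to 0.26 in non-TFH cells, and Tob1 was lower in S1PR4-/- cells under all of them.

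B cell transcripts moved with genotype in the same samples. In TFH samples the B cell marker score ran from 1.89 to 5.12 in WT (median 3.85) and from -0.012 to 4.17 in S1PR4-/- mice (median 1.199). Of the 12 B cell markers 11 had a negative log2 fold change and 0 passed the thresholds, with a median of -2.20. Their summed level was 1131 to 1475 CPM in WT and 934 to 1306 CPM in S1PR4-/- samples, and no marker was at 0 in a whole group. In non-TFH samples the score ran from 0.064 to 2.38 in WT and from -1.01 to 0.52 in S1PR4-/- mice, 7 of 7 tested markers were negative, and all 12 markers summed to 1090 to 1373 CPM in WT and 901 to 1235 CPM in S1PR4-/- samples. Tob1 itself was at mean levels of 10.8 to 22.3 CPM in the 4 B cell groups, under the 24.4 CPM of WT TFH and the 47.2 CPM of WT non-TFH cells. In an edgeR fit that included the B cell marker score, the log2 fold change of Tob1 was -0.57 in TFH (adjusted p = 0.23) and -0.78 in non-TFH cells (adjusted p = 0.23). Since the score itself differed between genotypes, this fit cannot tell genotype and B cell transcripts apart. The part of B cell transcripts in the Tob1 values was not tested otherwise.

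Plasma cell transcripts moved with genotype too. The plasma cell marker score ran from 3.16 to 5.08 in WT TFH (median 3.95) and from 1.24 to 3.24 in S1PR4-/- TFH samples (median 2.59), and its 8 markers summed to 291 to 673 CPM and 244 to 293 CPM. Of 7 tested markers 6 were negative in TFH cells (median -1.15) and 4 in non-TFH cells (median -0.077). Mzb1, a chaperone of antibody-secreting cells, passed in both, with log2 fold changes of -4.35 in TFH and -3.77 in non-TFH cells. In non-TFH samples the score had medians of 1.78 in WT and 1.06 in S1PR4-/- mice. The part of plasma cell transcripts in the Tob1 values was not tested.

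The mix of sexes also differed between the genotypes in T cells. Xist, which is transcribed from the inactive X chromosome, exceeded the Y-linked Ddx3y in 5 of 6 WT and 2 of 6 S1PR4-/- TFH samples, and in the same replicate numbers of non-TFH samples. In B cells the counts were 3 of 6 in both genotypes of GC B cells, and 3 of 5 WT and 2 of 4 S1PR4-/- non-GC B samples. Among TFH samples with more Xist, Tob1 ran from 17.1 to 27.3 CPM in WT and was at 16.97 and 13.3 CPM in S1PR4-/- mice. With more Ddx3y it was at 26.5 CPM in the 1 WT sample and 13.3 to 20.0 CPM in the 4 S1PR4-/- samples. In non-TFH cells Tob1 was at 32.6 to 60.6 CPM in WT and 31.7 and 34.5 CPM in S1PR4-/- samples with more Xist, so these overlapped. With more Ddx3y the non-TFH values were 42.4 CPM in the WT sample and 26.9 to 28.7 CPM in S1PR4-/- samples. In a fit with Xist as a covariate, the log2 fold change of Tob1 was -0.68 in TFH (adjusted p = 0.022, edgeR) and -0.57 in non-TFH cells (adjusted p = 0.26).

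Cdkn2c was the member whose groups did not overlap between S1PR4-/- and WT TFH cells, a pattern of 1.87% of the genes tested. WT replicates 1 to 6 held 132, 106, 89.6, 122, 103 and 131 CPM and S1PR4-/- replicates 146, 142, 151, 171, 146 and 193 CPM. The log2 fold change was 0.47 (SE 0.102, edgeR adjusted p = 0.045), a 1.38-fold difference that stayed under the fold threshold. In non-TFH cells it was -0.28 (95% interval -0.73 to 0.17). The test of the difference between these values gave 0.75 (SE 0.248, unadjusted p = 0.0063, adjusted p = 0.36).

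The other members in TFH cells did not pass. Btg1 had a log2 fold change of -0.47 (95% interval -0.78 to -0.17, adjusted p = 0.096), with medians of 567 CPM in WT and 355 CPM in S1PR4-/- samples. Without S1PR4-/- replicate 2, the highest of its group at 568 CPM, the value was -0.60 with an adjusted p of 0.029 in edgeR's test, past both thresholds. Btg1 lies 15.1 Mb from S1pr4 on chromosome 10. Cdkn1b (-0.38, adjusted p = 0.090), Btg2 (-0.36, adjusted p = 0.13) and Btg3 (-0.25, adjusted p = 0.22) had negative values, and Cdkn1a (0.19), Cdkn2d (0.03) and Tob2 (-0.11) were nearer to 0. Unadjusted p was under 0.05 for 6 of 9 members and for 19.0% of all genes. The median over the members was -0.25, against -0.0024 over all genes.

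In non-TFH cells the 8 members besides Tob1 also did not pass. Btg2 came nearest, with 343 to 489 CPM in WT and 259 to 345 CPM in S1PR4-/- samples. Its log2 fold change was -0.41 (95% interval -0.60 to -0.21, adjusted p = 0.082, edgeR's quasi-likelihood test). For Cdkn1b the value was -0.36 (95% interval -0.66 to -0.068) and for Btg1 -0.08 (95% interval -0.23 to 0.068).

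In GC B cells 0 of 9 members passed, against 0.0612% of 13070 genes tested with edgeR (0.0153% higher and 0.0459% lower), and DESeq2 and limma also gave 0. Unadjusted p was under 0.05 for 2 members, Cdkn1a (log2 fold change -0.51, 95% interval -1.001 to -0.0225) and Tob1 (-0.37, 95% interval -0.72 to -0.0146), and for 3.83% of all genes. The genotypes overlapped in all 9 members, and were apart in 0.207% of genes. S1PR4-/- GC B samples held 8.88 to 12.4 CPM of Tob1, within the WT range but for 1 sample. Cdkn2c was at 55.4 CPM ± 3.65 (SD, n = 6) in S1PR4-/- and 49.2 CPM ± 12.5 in WT GC B cells, with a log2 fold change of 0.16 (95% interval -0.14 to 0.47).

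In non-GC B cells 0 of 9 members passed with edgeR, DESeq2 or limma, against 0.0614% of 13038 genes tested with edgeR (0.023% higher and 0.0383% lower). Unadjusted p was under 0.05 for 2 members, Tob2 (-0.38, 95% interval -0.63 to -0.12) and Cdkn2d (0.19, 95% interval 0.0405 to 0.34), and for 4.55% of all genes. The Cdkn2d groups did not overlap, with 102, 100, 111, 106 and 92.5 CPM in WT and 114, 115, 123 and 114 CPM in S1PR4-/- samples, as was so for 1.79% of all genes.

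Tests of whether the genotype effect differed between populations passed for 0 of 9 members in B cells and 0 of 9 in T cells, against 0% of 14490 and 0.0139% of 14401 genes. DESeq2 and limma also gave 0 members in both. Unadjusted p was under 0.05 for 1 member in B cells (Cdkn2d, -0.23), against 4.58% of all genes, and for 2 in T cells (Cdkn2c, 0.75, and Btg1, -0.39), against 9.09%. The interaction value of Tob2 in B cells was 0.26 (95% interval -0.072 to 0.59).

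Genes that act with these inhibitors were counted in fixed lists. The shares of all genes to set beside these counts were 22.8% higher and 20.3% lower in WT TFH against non-TFH cells, and 24.6% higher and 22.9% lower in WT GC B against non-GC B cells. Of 14 CDK, cyclin and RB family genes, 9 were higher and 1 lower in WT TFH than non-TFH cells, with a median log2 fold change of 0.94. Those with the lowest p were Ccne1 (2.94), Cdk6 (2.91), Cdk1 (4.64) and Ccnb1 (4.48). In WT GC B cells 11 were higher and 1 lower (median 1.201), led by Ccne2 (5.35), Ccna2 (7.36), Ccnd3 (1.99) and Cdk4 (1.15), the partner that INK4 proteins bind.

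A list around the SKP2 ubiquitin ligase, which marks p27 for breakdown, was counted next. The list also held Cdc34 and Ccnf, which are not subunits of that ligase. In WT TFH cells 3 of 7 tested genes of the list were higher and 0 lower, against 22.8% and 20.3% of all genes. They were Cks1b (2.91), Ccnf (4.04) and Skp2 (1.53). WT GC B cells had 4 of 7 higher and 0 lower, against 24.6% and 22.9%, namely Cks1b (5.09), Ccnf (4.48), Skp2 (2.31) and Cdc34 (0.87). Of 16 proliferation genes, such as Aurka, Cdc20, Mcm3 and Mcm5, all 16 were higher in both WT populations of the GC response, with medians of 4.06 in TFH and 4.83 in GC B cells.

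Quiescence regulators, transcription factors and others that keep lymphocytes at rest, moved the other way. In WT TFH cells 0 of 11 tested were higher and 8 lower (median -0.91), among them Klf6 (-1.64), Bach2 (-3.61), Foxp1 (-1.65) and Foxo1 (-1.09). In WT GC B cells 0 of 12 were higher and 7 lower (median -0.88), led by Foxo3 (-1.89), Ets1 (-0.91), Foxp1 (-1.34) and Klf2 (-2.45).

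Other p53 targets were mixed. WT TFH cells had 6 of 15 higher and 2 lower, against 22.8% and 20.3% of all genes, with Dcxr (2.38), Rps27l (0.89) and Sesn2 (1.18) higher and Sesn1 (-2.64) lower. WT GC B cells had 5 of 14 higher and 1 lower, against 24.6% and 22.9%, with Rps27l (1.82), Bbc3 (1.64), Phlda3 (3.55) and Sesn2 (0.68) higher. The list of deadenylase partners of TOB and BTG proteins also held the poly(A)-binding protein genes Pabpc1 and Pabpc4 and the methyltransferase gene Prmt1. Of its 16 genes, 0 passed in WT TFH cells with edgeR (median 0.12). Unadjusted p was under 0.05 for 12 of them and for 71.2% of all genes, a like share. In WT GC B cells 4 of 16 were higher, near the 24.6% of all genes, and 0 lower, against 22.9%. The 4 were Cnot6 (1.01), Cnot9 (1.11), Pabpc4 (1.34) and Pabpc1 (0.69). Of the other BTG and CDK inhibitor genes, Cdkn1c was tested in T cells (log2 fold change -0.55, edgeR adjusted p = 0.082) and Cdkn1c and Cdkn2b in B cells (-0.07 and 0.39).

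**Figure D4:**
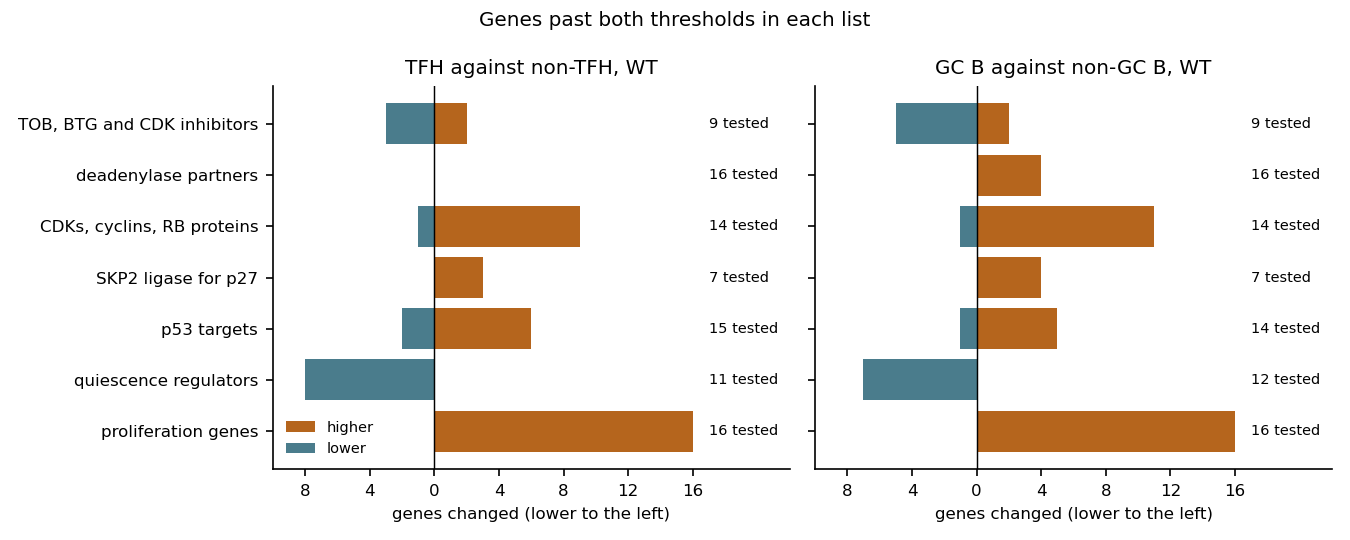
Number of genes past both thresholds in each list, lower to the left and higher to the right of 0, in WT TFH against non-TFH cells and WT GC B against non-GC B cells. The number tested stands at the right. All 16 proliferation genes were higher in both, and no quiescence regulator was higher.

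Between genotypes, 0 genes of these lists passed with edgeR in any population. In TFH cells unadjusted p was under 0.05 for 13 of 16 proliferation genes (median log2 fold change 0.34), 8 of 14 CDKs, cyclins and RB family genes (median 0.28), 6 of 16 deadenylase partners (median 0.078) and 3 of 11 quiescence regulators (median -0.11), against 19.0% of all genes. In non-TFH cells it was so for 2 of 16 (median 0.33), 2 of 14 (median 0.19), 0 of 16 (median 0.015) and 4 of 11 (median -0.15), against 11.2% of all genes. In the test of the difference between TFH and non-TFH values it was so for 0 of 16 proliferation genes (median -0.039). There it was so for 1 of 14 CDKs, cyclins and RB family genes (median 0.055), against 9.09% of all genes. In GC B and non-GC B cells it was so for 0 of 16 proliferation genes in each.

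Over the 45 samples, which fall into 8 groups, Cdkn2c followed Cdkn1a (Pearson r = 0.89 on log2 CPM) and ran against Btg1 (r = -0.95). Btg1 and Btg2 had r = 0.77, and Cdkn1b was closest to Tob1 (r = 0.75). Among 8896 other genes with a mean of at least 10 CPM, those most like Cdkn2c included Blmh (r = 0.98) and Cenpa (0.98). Btg1 was nearest to H2-K2 (0.97), C87436 (0.96) and Letm2 (0.96). For Tob1 they were Pnrc1 (0.93), Fam49a (0.93) and Vps37b (0.91), and for Cdkn1a they included Bcl2a1b (0.93) and Cdk6 (0.93). Cdkn1b was most like Dop1b (0.95), Pip4p2 (0.95) and Klhl25 (0.95), Cdkn2d like Ndrg3 (0.94), Casp8 (0.93) and Junb (0.93), and Btg3 like Mcfd2 (0.91), Slc17a9 (0.90) and Gpr180 (0.90). Tob2 was most like Dennd4b (0.92), Rhbdf2 (0.86) and Tkfc (0.84), and Btg2 like Rsrp1 (0.89), Khdc4 (0.88) and Rnf13 (0.87). These values describe likeness across groups and were not tested.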

How the data were processed

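The members and gene lists were chosen with earlier results of these data known. RNA of 45 sorted samples was sequenced. The methods describe an oligo-dT capture, and both methods and labels name a stranded total RNA kit with removal of ribosomal RNA. The strand setting of RSEM was not given in the sources used here. Per the methods and labels, the authors used Cutadapt 2.10 for trimming, STAR 2.5.3 for alignment to mm10, Picard for duplicates and RSEM 1.3.0 for quantification. The authors deposited RSEM expected counts without scaling, and 8.83% of values are not whole. Samples were grouped by their labels. Here counts were rounded, filtered with filterByExpr and scaled by TMM in edgeR 4.0.16 (R 4.3.3). Each comparison used edgeR's quasi-likelihood test on its own groups, with Benjamini-Hochberg adjustment over all tested genes. The fits of GC B against TFH cells, non-GC B against non-TFH cells and the interactions used 4 groups. Changed means FDR under 0.05 and fold over 1.5, and FDR alone for interactions. The study names DESeq2, which was run here as an alternative (1.42.0), as was limma 3.58.1 with voom. Standard errors came from the F statistic, and 95% intervals from the t quantile at the total degrees of freedom of each test (residual and prior together). Fits were tested on simulated data. Levels are CPM scaled over all 45 samples. Scores and correlations were taken on the log2 scale (CPM, prior count 2). Exon lengths, coordinates and words of 31 bases shared between transcripts came from GENCODE M21. The study's methods name M30, and the annotation of the table was not given otherwise in the sources used here. All 9 members had RefSeq promoter windows (12 in all). The text names all 9 members, up to 4 changed genes per list and comparison by lowest p, and the 3 genes most correlated with a member over the samples, of which some are not reported here. Samples were split by Xist and Ddx3y after their values were seen. Marker scores, Xist, other scalings, filters, a replicate block, a joint fit and leaving out each sample were tried as alternatives.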

Additional observations from a re-analysis of the deposited data

Results flagged for a closer look

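The test for a sample far from the others of its group was made for each member in each group, 72 in all, of which chance alone would mark about 1 in 20. It marked 2. Btg3 in S1PR4-/- TFH replicate 4 was at 8.13 CPM, with the next highest sample of that group at 7.08 CPM. Cdkn2d in S1PR4-/- non-GC B replicate 3 was at 123 CPM, with the next highest at 115 CPM. Both stood above their group.

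The change from outside to inside the GC response differed between WT B and CD4+ T cells for 5 members by edgeR's quasi-likelihood test of the difference itself. The difference, B minus T on the log2 scale, was -0.97 for Tob2, 1.60 for Btg3, -2.38 for Cdkn1a, -1.61 for Cdkn1b and -0.85 for Cdkn2c. B cells were sorted on day 9 and T cells on day 6, so lineage and day cannot be told apart.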

How the results depend on the processing

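Depth limits Cdkn1a most, with 7 to 64 expected counts per sample in S1PR4-/- non-TFH cells. Btg3 and Cdkn1a counts include reads that other transcripts share.

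The number of members changed in TFH cells between genotypes, 1, was 0 with a replicate block or the B cell marker score as a covariate and 2 with Xist as a covariate (Tob1 and Btg1). In non-TFH cells it was 1, and 0 with total counts, limma voom, the B cell marker score or Xist. Leaving out 1 sample gave 0 to 2 in TFH cells and 0 to 1 in non-TFH cells. The causes were not tested. For GC B against non-GC B cells it gave 5 to 7 in WT and 5 to 6 in S1PR4-/- mice, for WT GC B against TFH cells 5 to 6, and for WT non-GC B against non-TFH cells 4 to 5. The other counts did not move. Replicate numbers were not taken as pairs, since by the rule used same-numbered deviations correlated over 0.1 in at most 3 of 6 pairs. That rule does not exclude pairing. In T cells, 6 of 6 S1PR4-/- and 4 of 6 WT samples correlated best with their own number. In B cells, 4 of 5 WT and 0 of 4 S1PR4-/- samples did. TFH and non-TFH samples of the same number also had the same class by Xist and Ddx3y. Same-numbered T cell samples may thus come from the same mouse, which the main tests did not take into account. With the replicate block, adjusted p (edgeR) was 0.063 for Tob1 between genotypes in TFH cells. It was 0.066 for Cdkn1a in S1PR4-/- GC B against non-GC B cells, and no other member's call changed. The Tob1 fit joined WT and S1PR4-/- samples of the same number, which are different mice. In the Cdkn1a fit, same-numbered samples 1, 3 and 4 differed in class by Xist and Ddx3y. Neither value thus tests pairing by mouse.

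Of 324 values of changed members under alternative settings, 312 kept their call, 12 lost it and 0 reversed, and of 684 values not called 2 gained one. Leaving out samples kept 594 of 626 calls, lost 32, reversed 0 and added 4. Uncalled values changed sign in 21 and 63 cases. The losses not named above were Cdkn1a in S1PR4-/- GC B against non-GC B cells (0.59 with total counts, 0.77 with no filter, 0.68 with limma voom, 0.66 with all groups in 1 fit) and Btg3 in WT GC B against TFH cells (0.58 with limma voom). Total counts moved the median of all genes from -0.053 to -0.13 between WT non-GC B and non-TFH cells, and there Cdkn1b gained a call (-0.65, against -0.57). Leaving out WT non-TFH replicate 1 or 6 or WT non-GC B replicate 5 did the same (-0.63, -0.61 and -0.60). Over all genes, DESeq2 called 198 in TFH cells between genotypes (edgeR 61) and 52 in non-TFH cells (edgeR 17). The B cell marker score left 10 in each, Xist gave 140 and 9, and the joint fit 144 and 17. Leaving out 1 sample gave 11 to 115 in TFH cells. In GC B cells DESeq2 called 14 (edgeR 8), and in non-GC B cells 16 (edgeR 8, joint fit 26, replicate block 5). In the interaction tests DESeq2 called 76 in T cells (edgeR 2, replicate block 10, total counts and limma 1) and 6 in B cells (edgeR 0, joint fit 5).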
